A study of Mus musculus with 2 samples.

Results

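A set of 4 tendon genes was followed through the amputated digit: *Scx* and *Mkx*, which encode transcription factors, and *Tnmd* and *Thbs4*, which encode proteins made by tendon cells. They were taken by their symbols from the gene lists of both libraries, where each symbol matched 1 row, and are 4 of the 33696 genes counted. The cells came from hindlimb digits of ICR mice, an outbred stock, with males and females pooled. In both groups digits 2 and 4 had been amputated through the middle phalanx (P2) at postnatal day 3, a wound that does not regenerate without treatment, and had received a microcarrier bead at postnatal day 7. In the FGF8 group the bead carried FGF8, a fibroblast growth factor, at 500 ng/µl. In the BSA group it carried 0.1% bovine serum albumin as the control. Tissue distal to the P2 stump was collected 1 day later, at postnatal day 8, after the epithelium had been removed, and 20 digits of 5 mice were pooled into 1 library for each group. The FGF8 pool is likely to hold digits that would not have regenerated, since digits were not chosen by outcome. With 1 library per condition no test was possible, so no p-value is given, and every interval is a 95% interval that covers counting error only.

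In the developing limb, *Scx* (scleraxis, a basic helix-loop-helix factor) marks tendon and ligament progenitors and the cells where tendon meets cartilage. *Mkx* (mohawk, a homeobox factor) acts later, in the making of collagen fibrils by tendon cells. *Tnmd* (tenomodulin) is a membrane glycoprotein that marks mature tendon cells and depends on *Scx*, and *Thbs4* (thrombospondin 4) is a secreted matrix protein of tendon and its muscle attachment. The P2 amputation cuts through the ventral tendon and the dorsal ligament, and the comparison asks how these genes stand in the wound cells 1 day after FGF8.

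Basic helix-loop-helix factors such as SCX bind the E-box, whose letters are CANNTG (a motif that reads the same on both strands). The promoters of the marker genes *Tnmd* and *Thbs4* are printed because SCX is the regulator among the 4 that acts through this motif. They run from 250 bases before to 50 bases after the start site (RefSeq, build GRCm38.p6), and capitals mark each CANNTG.
Tnmd, chrX:133850758-133851057, plus strand: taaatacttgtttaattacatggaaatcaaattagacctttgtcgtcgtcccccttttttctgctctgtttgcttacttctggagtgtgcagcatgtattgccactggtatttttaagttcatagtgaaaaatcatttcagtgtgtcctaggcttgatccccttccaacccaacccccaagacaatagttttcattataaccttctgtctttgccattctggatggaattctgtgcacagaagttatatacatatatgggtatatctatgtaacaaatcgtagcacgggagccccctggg
Thbs4, chr13:92794769-92795068, minus strand: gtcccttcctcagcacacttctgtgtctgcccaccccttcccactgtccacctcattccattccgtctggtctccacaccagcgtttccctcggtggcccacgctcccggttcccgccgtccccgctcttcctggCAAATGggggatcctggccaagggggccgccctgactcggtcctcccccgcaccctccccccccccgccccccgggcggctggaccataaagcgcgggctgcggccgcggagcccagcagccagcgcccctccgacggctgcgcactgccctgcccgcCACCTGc
The *Tnmd* window holds 0 copies of CANNTG, and 40.0% of its bases are G or C. The *Thbs4* window holds 2, CAAATG beginning 115 bases before the start site and CACCTG beginning at base 44 after it, in a sequence of 72.0% G and C. Of 32851 mouse promoters of this length, 23756 (72.3%) hold at least 1 copy and the median is 1, so a match is common and describes letters only.

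On GRCm39, *Scx* (ENSMUSG00000034161) lies at chr15:76341563-76344281 on the plus strand and its main transcript has 3 exons. It overlaps *Bop1* on the opposite strand. *Mkx* (ENSMUSG00000061013) lies at chr18:6931133-7005516 on the minus strand, with 7 exons, and overlaps the long non-coding genes *Gm2350* (same strand) and *Gm46633* (opposite strand). Reads of *Mkx* and *Gm2350* may therefore be hard to separate. *Tnmd* (ENSMUSG00000031250) is X-linked, at chrX:132751720-132766326 on the plus strand with 7 exons, and *Thbs4* (ENSMUSG00000021702) lies at chr13:92888095-92931501 on the minus strand with 22 exons. Neither overlaps another annotated gene.

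The libraries held 7249 barcodes and 124889213 UMIs (FGF8) and 3703 barcodes and 67739460 UMIs (BSA). A UMI, or unique molecular identifier, tags 1 captured transcript, so that its PCR copies are counted once. The filters kept cells that had over 200 and under 7500 genes and less than 15% mitochondrial UMIs. This left 6715 FGF8 and 3252 BSA cells, with median depths of 12251 and 15377 UMIs, and 6 barcodes occurred in both libraries. Because detection depends on depth, shares of cells with a UMI are also given after thinning each cell to 5000 UMIs, which left out 1744 FGF8 and 798 BSA cells. The libraries also differed in sex. Cells with *Xist* and no Y-linked transcript made up 24.6% of the sexed FGF8 cells and 79.3% of the sexed BSA cells, so that ratios are given within female-called and male-called cells too. Treatment, the sex of the pool, the animals and the library cannot be told apart.

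All 4 genes were found mainly in the fibroblast-like cells. *Mfap5*, *Mfap4* and *Crabp1* were its leading genes, and it held 3326 FGF8 and 1714 BSA cells, 49.5% and 52.7% of the kept cells. The fibroblast marker list had the highest mean log2 fold over other clusters (3.26), and the tenocyte list was next at 3.05. The tenocyte list holds the 4 genes themselves, so its score is no separate evidence of tendon cells. In the FGF8 library the fibroblast-like cluster held 95.7% of the *Scx* UMIs, 92.1% of *Mkx*, 94.3% of *Tnmd* and 96.4% of *Thbs4*. In the BSA library the shares were 96.4%, 94.0%, 92.6% and 97.4%. No other cluster came near these shares for any of the 4 genes in either library.

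For *Scx* there were 3403 UMIs in the FGF8 fibroblast-like cells, or 48.7 CPM (47.1–50.3), and 2111 in the BSA cells, or 59.5 CPM (56.9–62.0), where CPM is UMIs of the gene per 1000000 UMIs of these cells. The other 8 clusters lay between 2.17 and 9.64 CPM in FGF8 and between 0 and 8.95 CPM in BSA. Fibroblast-like cells therefore stood first by a wide margin, and most neighbours below them had overlapping intervals. *Mkx* gave 15.1 CPM (14.2–16.1) in FGF8 and 24.0 CPM (22.4–25.7) in BSA, from 1058 and 852 UMIs. Next came chondrocyte-like cells, at 8.46 CPM (5.57–12.3) and 12.2 CPM (7.47–18.9), and all other clusters were at or below 6.19 CPM.

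*Tnmd* gave 85.2 CPM (83.1–87.4) in FGF8 and 134 CPM (130–138) in BSA, from 5957 and 4752 UMIs. Smooth muscle or pericyte-like cells came second in both libraries, at 48.6 CPM (41.7–56.3) and 71.2 CPM (61.8–81.6), and in BSA the interval of erythroid-like cells (43.7–68.5) overlapped theirs. *Thbs4* gave 450 CPM (445–455) in FGF8 and 176 CPM (172–181) in BSA, from 31472 and 6261 UMIs. The other clusters held 11.6 to 69.3 CPM of *Thbs4* in FGF8 and 0 to 14.8 CPM in BSA. The low levels outside fibroblast-like cells set a background: macrophage-like cells, which should lack these genes, had a UMI of *Scx* in 2.48% (FGF8) and 2.14% (BSA) of cells, of *Mkx* in 0.790% and 1.28%, of *Tnmd* in 3.39% and 1.71%, and of *Thbs4* in 17.7% and 4.50%, at median depths of 9643 and 10311 UMIs.

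**Figure D1:**
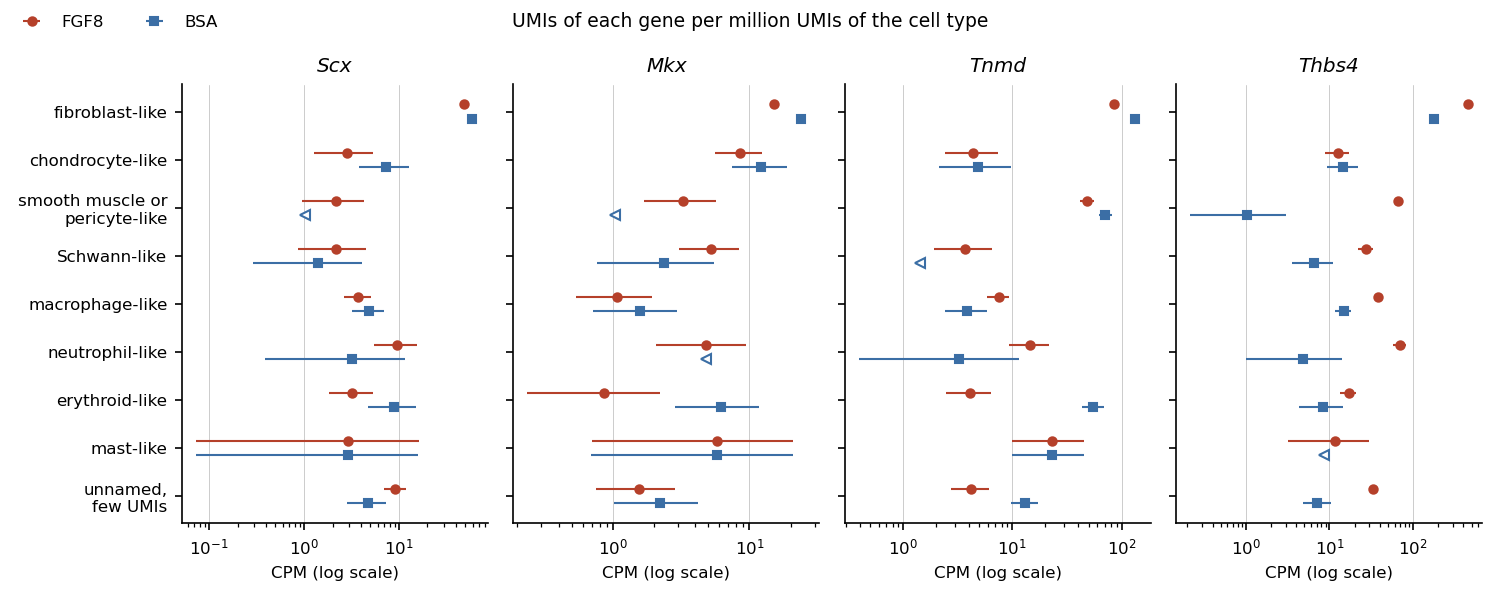
Level of each gene in each cell type, as CPM on a log axis, for FGF8 (circles) and BSA (squares) with exact Poisson 95% intervals; open triangles mark the level of 3 UMIs where none were counted. Fibroblast-like cells are highest for all 4 genes (48.7 and 59.5 CPM for *Scx*), and *Tnmd* is second in smooth muscle or pericyte-like cells (48.6 and 71.2 CPM).

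*Tnmd* in smooth muscle or pericyte-like cells was spread over many cells. It was found in 65 of 285 FGF8 cells (22.8%, 18.1–28.1%) and 51 of 186 BSA cells (27.4%, 21.1–34.4%), and in 14.0% and 18.3% after thinning. Nearly all cells of the cluster had UMIs of the pericyte and smooth muscle genes *Rgs5* and *Acta2*, with and without *Tnmd*. The fibroblast gene *Dpt* was found in 30.8% of FGF8 cells with *Tnmd* and 18.6% of those without, and in 13.7% and 21.5% of BSA cells. *Pdgfra*, also a fibroblast gene, was found in 12.3% and 10.5% (FGF8) and 7.84% and 1.48% (BSA). The part of fibroblast RNA in these *Tnmd* counts was not tested. The highest single cells held 12 and 15 of the 178 and 206 UMIs. *Scx* was found in 4 of the FGF8 cells and in 0 of 186 BSA cells, which at this depth allows a UMI in up to 1.61% of cells, and the same count of 0 held for *Mkx* in BSA. The BSA counts of *Tnmd* and *Thbs4* here were 206 and 3. They were 4752 and 6261 in fibroblast-like cells, 22 and 85 in macrophage-like cells, and 80 and 12 in erythroid-like cells, so their ratio varied between clusters. *Thbs4* had 245 UMIs in the FGF8 cells of this cluster, but 186 of them were in 1 cell, and the level was 66.9 CPM with that cell and 16.3 CPM without it.

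A few cells also carried the *Tnmd* counts of BSA erythroid-like cells, at 55.1 CPM. Of 80 UMIs in 7 of 83 cells, 63 were in the 2 highest cells, and the level without the highest was 33.2 CPM. Chondrocyte-like cells had few UMIs of any of the 4 genes, with 9 and 12 of *Scx*, 27 and 20 of *Mkx*, 14 and 8 of *Tnmd*, and 40 and 24 of *Thbs4* (FGF8 and BSA) in 142 and 66 cells. In Schwann-like BSA cells *Tnmd* was not seen in 124 cells, which allows a UMI in up to 2.42% of cells. *Mkx* was not seen in 158 neutrophil-like BSA cells (up to 1.90%), nor *Thbs4* in 41 mast-like BSA cells (up to 7.32%).

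Within the fibroblast-like cells the 4 genes had different maps. The cells were divided again without the 4 genes, the study's lists of changed genes and the X- and Y-linked genes as features, which gave 6 subclusters. Subcluster 0 was led by *Prg4* (lubricin, the joint lubricant), *Spp1* and histone genes of dividing cells, and subcluster 1 by *Tnfrsf19* and *Zfp536*. Subcluster 2 had few UMIs per cell, with medians of 2504 and 2539, and subcluster 3 was led by *Lpl* and *Dlk1*. Subcluster 4 was led by *Mgp*, *Comp*, *Matn4*, *Rspo2* and *Fmod*, of which *Comp* and *Fmod* encode tendon and cartilage matrix proteins, and subcluster 5 by *Corin* and *Sox18*. None was given a cell type name.

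*Scx* was concentrated in subclusters 0 and 4. Its level was 63.6 CPM (61.1–66.1) in FGF8 and 122 CPM (116–129) in BSA cells of subcluster 0, and 133 CPM (123–144) and 114 CPM (104–124) in subcluster 4. In the other subclusters it did not exceed 20.1 CPM, and in subcluster 5 only 2 and 1 UMIs were counted in 84 and 40 cells. Subcluster 0 held 74.1% of the *Scx* UMIs of FGF8 fibroblast-like cells and 66.2% of those of BSA, and subcluster 4 held 19.2% and 25.0%. In BSA the intervals of subclusters 0 and 4 overlapped, and in FGF8 they did not.

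*Mkx* was more evenly spread. It was highest in subclusters 4 (35.9 CPM in FGF8, 46.4 CPM in BSA) and 2 (32.5 and 46.5 CPM), whose intervals overlapped in both libraries. The BSA value of subcluster 2 rested on 2 of its 219 cells, which held 30 of 44 UMIs, and it was 15.2 CPM without them. It was lowest in subcluster 3, at 6.15 and 5.29 CPM. Subclusters 0, 1 and 5 lay between these, at 11.3, 21.9 and 15.6 CPM in FGF8 and 27.4, 19.8 and 13.6 CPM in BSA.

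*Tnmd* was highest in subcluster 4, at 528 CPM (508–549) in FGF8 and 325 CPM (309–342) in BSA, and in subcluster 5, at 446 CPM (409–485) and 305 CPM (268–345). These 2 subclusters overlapped in BSA and not in FGF8. Subcluster 1 followed at 120 and 156 CPM, and subcluster 0, the main site of *Scx*, was low for *Tnmd* at 20.6 and 66.0 CPM. *Thbs4* peaked in subcluster 4 at 1210 CPM (1180–1241) and 477 CPM (458–498), with subcluster 0 next at 518 CPM (FGF8) and 193 CPM (BSA). It was lowest where *Tnmd* was high and *Scx* nearly absent, in subcluster 5, at 38.6 and 18.5 CPM (6.73 CPM in BSA without the 2 highest of 40 cells).

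**Figure D2:**
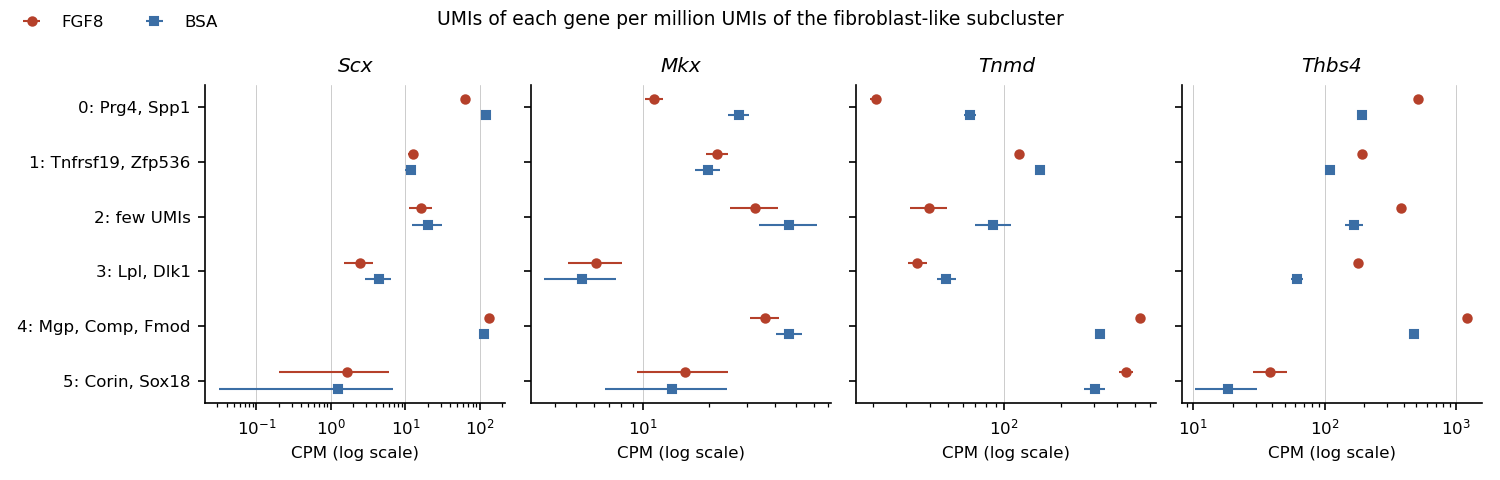
Level of each gene in the 6 fibroblast-like subclusters, as CPM on a log axis, for FGF8 (circles) and BSA (squares) with exact Poisson 95% intervals. *Scx* is at 122 and 114 CPM in subclusters 0 and 4 in BSA and at 1.64 and 1.23 CPM in subcluster 5, where *Tnmd* reached 446 and 305 CPM.

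*Tnmd* in subclusters 4 and 1 differed in how it was spread over cells. In subcluster 4, 61 of 255 FGF8 cells held all 2603 UMIs, a mean of 42.7 per positive cell, and 97.7% of these UMIs were in cells with at least 10. In BSA it was 49 of 187 cells, with a mean of 30.9 and 95.5%. Subcluster 1 had many weakly positive cells instead: 373 of 920 FGF8 cells with a mean of 4.34 UMIs and 313 of 644 BSA cells with a mean of 5.99. A small number of cells also carried the other genes, since the top 10% of fibroblast-like cells held between 72.3% and 88.1% of the UMIs of each gene in each library.

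Between libraries, the CPM of *Thbs4* was higher in FGF8 and that of the other 3 genes was lower. For *Scx* the sign changed with the called sex and the cell filter, as given below. In fibroblast-like cells the log2 ratio of CPM, FGF8 over BSA, was 1.35 (1.31 to 1.39) for *Thbs4*, a 2.55-fold higher level. It was -0.65 (-0.71 to -0.60) for *Tnmd*, -0.66 (-0.80 to -0.53) for *Mkx* and -0.29 (-0.37 to -0.21) for *Scx*, which were 1.57-fold, 1.59-fold and 1.22-fold lower. *Thbs4* thus passed a log2 ratio of 1 in the FGF8 direction, 1 of the 4 genes, against 6.62% of the 20053 genes with at least 10 UMIs. None of the 4 was below -1, against 5.06% of those genes. The median of all genes was -0.07, and 44.1% were above 0. *Thbs4* is on the study's list of genes higher after FGF8, which was drawn from these same libraries, so that list is no independent evidence of its direction.

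Shares of cells with a UMI differed beyond their intervals for *Thbs4* and *Tnmd*. *Thbs4* was found in 51.2% of FGF8 and 29.8% of BSA fibroblast-like cells (37.2% and 20.6% after thinning) and *Tnmd* in 23.3% and 31.7% (15.3% and 21.2%). The share of macrophage-like cells with *Thbs4*, given above as background, was also higher in FGF8. *Mkx* was found in 17.3% and 19.9%, and in 5.96% and 7.94% after thinning, with intervals that overlapped. For *Scx* the shares were 25.3% and 24.0%, opposite to the CPM, and 13.2% and 14.2% after thinning, with overlapping intervals, so no order is read for *Scx* or *Mkx*.

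The ratios depended on the sex of the cells, which differed between the pools. *Thbs4* was higher in FGF8 in both sexes, at 0.95 (0.89 to 1.01) among female-called cells and 2.22 (2.12 to 2.33) among male-called cells. *Tnmd* was lower in both, at -1.16 (-1.26 to -1.05) and -0.36 (-0.47 to -0.25), and so was *Mkx*, at -0.84 (-1.08 to -0.62) and -0.28 (-0.55 to -0.01). *Scx* was lower in female-called cells, at -0.51 (-0.65 to -0.38), and higher in male-called cells, at 0.18 (0.01 to 0.35). The female-called cells numbered 683 (FGF8) and 1190 (BSA), and the male-called cells 2129 and 296, so the male-called BSA value rests on the fewest cells. *Scx* also turned to 0.15 under a stricter cell filter (over 500 and under 6000 genes, less than 10% mitochondrial UMIs), which removes the deepest cells.

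Among subclusters, *Thbs4* was the only one of the 4 genes with every ratio above 0, from 0.83 in subcluster 1 to 1.55 in subcluster 3. Its ratio was also 1.35 (1.01 to 1.70) in macrophage-like cells, taken above as background, at 37.6 and 14.8 CPM. Over all cells outside the fibroblast-like cluster it was 1.96 (1.73 to 2.20). Subcluster 5, at 38.6 and 18.5 CPM, lay near the macrophage-like level. The part of background in the *Thbs4* ratios was not tested. *Scx* was lower in FGF8 in subcluster 0, at -0.94 (-1.04 to -0.85), and differed little in subcluster 1, at 0.11 (-0.22 to 0.45). In subcluster 4 it was 0.23 (0.06 to 0.40), but -0.05 and -0.15 in the female-called and male-called cells of that subcluster, with intervals that include 0. *Mkx* was lower in subclusters 0 (-1.27) and 4 (-0.37), and its interval included 0 in the other 4. In subcluster 4 that value came from female-called cells, at -1.03 (-1.68 to -0.42), while male-called cells gave 0.10 (-0.51 to 0.77). *Tnmd* was lower in subclusters 0 (-1.68), 1 (-0.38), 2 (-1.15) and 3 (-0.51), and higher in subclusters 4 (0.70, 0.61 to 0.79) and 5 (0.55, 0.33 to 0.77). Its lower level in subcluster 0 was -2.02 (-2.28 to -1.77) among female-called cells and -0.37 (-0.76 to 0.04) among male-called cells. In subcluster 1 the values were -0.28 (-0.45 to -0.11) and -0.06 (-0.24 to 0.13), so in male-called cells the interval included 0 in both. The higher *Tnmd* of subcluster 4 rested on male-called cells, at 0.65 (0.46 to 0.84), since the female-called cells gave -0.37 (-0.57 to -0.19). In subcluster 5 the sexes also differed in sign, with 0.63 (0.31 to 0.97) in male-called cells and an interval across 0 in female-called cells (-0.21, -0.70 to 0.27). The female-called cells of subcluster 5 were also the exception for *Thbs4*, at -0.27 (-2.12 to 1.30) from 5 and 13 UMIs.

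**Figure D3:**
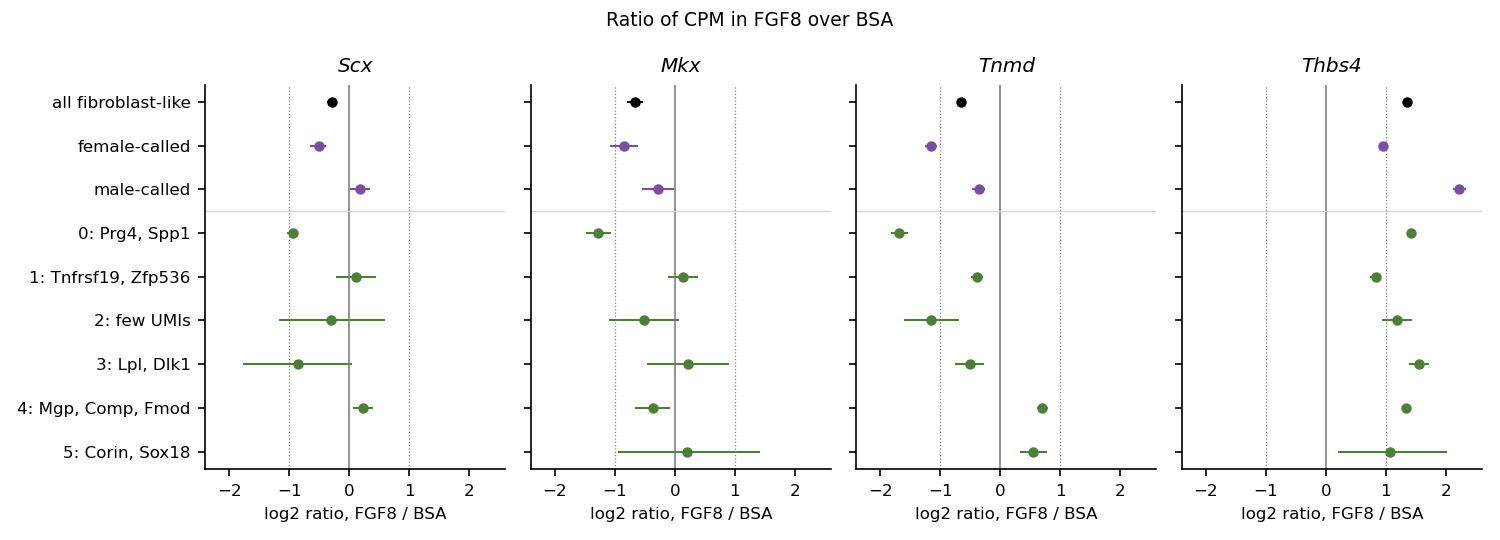
Log2 ratio of CPM, FGF8 over BSA, for each gene in all fibroblast-like cells (black), in each sex (purple) and in each subcluster (green), with exact conditional 95% intervals and dotted lines at -1 and 1. *Thbs4* is above 0 in every row, while *Tnmd* runs from -1.68 in subcluster 0 to 0.70 in subcluster 4; no ratio is drawn for *Scx* in subcluster 5, which had 2 and 1 UMIs.

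The mixture of subclusters moved with these ratios. Subcluster 0 gave 56.7% of the UMIs of FGF8 fibroblast-like cells and 32.2% of those of BSA, and subcluster 4 gave 7.05% and 13.1%. Because *Prg4*, one of the genes that lead subcluster 0, itself had a log2 ratio of 2.94 (2028 and 264 CPM), these shares are not compared as cell numbers. With the FGF8 sum reweighted to the BSA mixture, *Tnmd* came to -0.01, *Scx* to -0.47, *Mkx* to -0.42 and *Thbs4* to 1.29. The value near 0 for *Tnmd* is a balance of ratios below 0 in subclusters 0 to 3 and above 0 in subclusters 4 and 5. In female-called cells *Tnmd* was below 0 in all 6 subclusters, from -2.02 to -0.21, with an interval across 0 in subclusters 3 and 5. Cells with a *Prg4* UMI are not the same selection in both libraries, since *Prg4* differed so much and was found in 39.7% of FGF8 but 2.36% of BSA macrophage-like cells, which should lack it. Among cells with a *Prg4* UMI (1831 FGF8, 255 BSA) the ratios were -1.26 for *Scx*, -1.49 for *Mkx*, -0.63 for *Tnmd* and 0.77 for *Thbs4*. Among cells without one (1495 and 1459) they were -0.67, -0.37, -0.53 and 0.92.

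Few cells had a UMI of all 4 genes, and the share depended on depth. It was not set against the share expected from the single genes, so it does not show whether they keep apart. Without thinning, 75 of 3326 FGF8 fibroblast-like cells (2.25%, 1.78–2.82%) and 39 of 1714 BSA cells (2.28%, 1.62–3.10%) had all 4. After thinning, 16 of 2936 FGF8 fibroblast-like cells (0.545%, 0.312–0.883%) and 9 of 1498 BSA cells (0.601%, 0.275–1.14%) had a UMI of all 4, and 45.4% and 51.8% had none. Cells with 1 of the genes made up 41.0% and 35.7%. At least 3 were found in 15.7% of FGF8 and 9.84% of BSA cells of subcluster 4, against at most 4.32% in each library of subclusters 0, 1, 3 and 5.

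*Mkx* was found more often in cells with *Scx*. At 5000 UMIs the shares were 11.9% of FGF8 cells with *Scx* and 5.06% of those without, and 20.3% and 5.91% in BSA, with intervals that did not overlap in either library. *Thbs4* also went with *Scx*, in 58.4% against 34.0% of FGF8 cells and 36.8% against 17.9% of BSA cells. At 2000 UMIs the direction was the same, but the BSA intervals overlapped. *Mkx* was in 8.73% (4.44–15.1%) against 4.33% (3.36–5.49%) of BSA cells, and *Thbs4* in 21.4% (14.6–29.6%) against 13.5% (11.8–15.4%). Inside subcluster 0 at 5000 UMIs, *Mkx* was in 6.98% (4.19–10.8%) against 4.56% (3.32–6.10%) of FGF8 cells, where the intervals overlapped. In BSA these shares were 18.8% (12.5–26.5%) and 8.02% (4.90–12.2%). For *Scx* and *Tnmd* the answer depended on depth. At 5000 UMIs *Tnmd* was found in 16.8% of FGF8 cells with *Scx* and 15.1% of those without, and in 20.3% and 21.4% in BSA. At 2000 UMIs it was found more often with *Scx* in FGF8, in 16.2% (11.3–22.0%) against 9.24% (8.23–10.3%), and in 21.4% (14.6–29.6%) against 13.6% (11.9–15.4%) in BSA, where the intervals overlapped. Without thinning it was found less often with *Scx*, in 18.2% (15.6–20.9%) against 25.0% (23.3–26.8%) of FGF8 cells and 28.2% against 32.9% of BSA cells, so no link is read in either direction. *Tnmd* was found more often with *Mkx* at each depth, and at 5000 UMIs in 31.4% against 14.3% of FGF8 cells and 37.0% against 19.9% of BSA cells. *Thbs4* was found in 31.4% of FGF8 cells with *Tnmd* and 38.3% of those without, and in 17.0% and 21.5% in BSA, but at 2000 UMIs these were 27.0% and 26.3%, and 16.5% and 13.8%.

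Inside subcluster 4, at 5000 UMIs, *Tnmd* was found more often in cells with *Scx*. It was found in 48.1% (36.5–59.7%) of FGF8 cells with *Scx* and 7.91% (4.39–12.9%) of those without, and in 34.0% and 12.5% of the BSA cells. With *Mkx* it was 57.7% against 15.8% and 60.9% against 11.9%. In subclusters 0 and 1 the direction for *Scx* and *Tnmd* differed between libraries. In subcluster 0 *Tnmd* was in 7.36% of FGF8 cells with *Scx* and 3.93% of those without, and in 6.77% and 8.44% in BSA. In subcluster 1 these shares were 21.6% and 28.0% in FGF8, and 57.1% and 31.5% in BSA. In subcluster 1, *Tnmd* and *Thbs4* were found apart: *Thbs4* was in 16.4% (12.0–21.6%) of FGF8 cells with *Tnmd* and 29.7% (26.2–33.4%) of those without, and in 6.40% and 18.7% in BSA. In subcluster 4 the same pair ran the other way, with *Thbs4* in 96.1% (86.5–99.5%) of FGF8 cells with *Tnmd* and 72.9% (66.2–78.9%) of those without. In BSA it was found there in 21 of 33 cells (45.1–79.6%) and 63 of 150 cells (34.0–50.3%), with intervals that overlapped.

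Cells with at least 10 *Tnmd* UMIs showed these differences most plainly. There were 126 such fibroblast-like cells in FGF8 and 132 in BSA. In subcluster 4, *Scx* was found in 43 of 44 (FGF8) and 29 of 30 (BSA) of them, *Mkx* in 33 and 25, and *Thbs4* in 44 and 25. In subcluster 5, *Scx* was found in 0 of 17 and 0 of 11, which allows a UMI in up to 17.6% and 27.3% of such cells. *Mkx* was found in 7 and 4 of them, and *Thbs4* in 11 and 4. Subcluster 1 lay between for *Scx*, in 13 of 39 and 17 of 63, and for *Mkx*, in 22 and 30. Its shares with *Thbs4*, in 15 and 8 cells, were below those of subclusters 4 and 5, with intervals that overlapped those of subcluster 5. High *Tnmd* was thus accompanied by *Scx* in nearly every cell of 1 subcluster and in none of the counted cells of another, in both libraries.

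**Figure D4:**
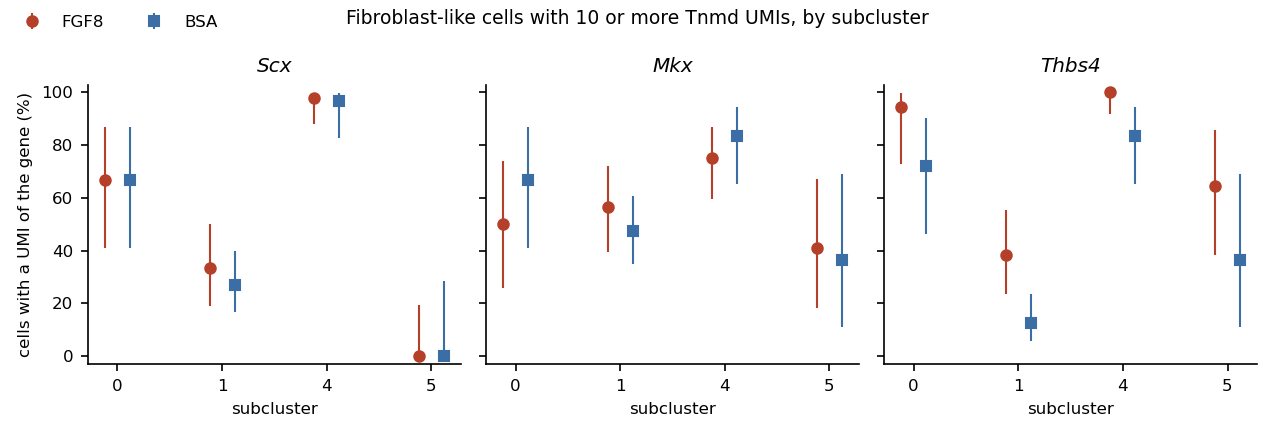
Share of fibroblast-like cells with at least 10 *Tnmd* UMIs in which *Scx*, *Mkx* or *Thbs4* was also found, by subcluster (those with at least 10 such cells in each library), for FGF8 (circles) and BSA (squares) with exact binomial 95% intervals. *Scx* is found in 43 of 44 and 29 of 30 cells of subcluster 4 and in none of 17 and 11 cells of subcluster 5.

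Tendon matrix genes that are not among the 4 gave a further view. *Kera* (keratocan) and *Fmod* (fibromodulin) encode small proteoglycans that bind collagen fibrils, and 189 FGF8 and 130 BSA cells had a UMI of both, 185 and 124 of them fibroblast-like. In these cells *Scx* was at 207 CPM (194–220) in FGF8 and 203 CPM (189–218) in BSA, which did not differ beyond counting error. *Mkx* was lower in FGF8, at 63.2 CPM (56.1–70.8) against 87.6 CPM (78.5–97.4). *Tnmd* was higher, at 673 CPM (649–697) against 484 CPM (462–507), and *Thbs4* was higher, at 1677 CPM (1640–1715) against 533 CPM (511–557). All 4 levels were above those of the fibroblast-like cells as a whole in both libraries. The *Kera* and *Fmod* cells were not split by called sex, so the part of sex in their differences was not tested. Within subcluster 4 the log2 ratio of *Tnmd* was -0.37 for female-called cells but 0.65 for male-called ones. That of *Mkx* was -1.03 and 0.10 there, in the same order, and that of *Thbs4* was 0.83 and 3.34. Cells with a UMI of *Ibsp* and *Sp7*, genes of bone-forming cells, numbered 67 and 28, of which 60 and 22 were in the fibroblast-like cluster. They held *Scx* at 65.6 CPM (54.4–78.5) and 49.0 CPM (35.6–65.7), but *Tnmd* only at 6.07 and 4.45 CPM and *Thbs4* at 7.72 and 1.11 CPM. *Kera* and *Fmod* were themselves lower in FGF8 fibroblast-like cells, with ratios of -1.04 and -1.10, so the cells with both are not the same selection in the 2 libraries. These pairs of markers were chosen after the levels had been seen.

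The genes whose levels most resembled each of the 4 were sought over 26 sums of cells (each cell type or subcluster in each library with at least 50 cells), among 10738 genes. The measure was Pearson's r of log2(CPM + 10); the sums share 2 libraries and differ in depth, so r is a description. For *Scx* they were *Kcnj15* (0.914), *Gm17455* (0.882), *Lhx9* (0.865), *Stk32c* (0.844) and *Fgf18* (0.833). For *Mkx* they were *Foxp2* (0.945), *Nlgn1* (0.936), *Itgbl1* (0.927), *Boc* (0.906) and *Fbxo17* (0.884). For *Tnmd* r was lower, with *Dipk1b* (0.851), *C1qtnf7* (0.846), *Hoxa10* (0.833), *Tmtc1* (0.829) and *Insyn1* (0.828). For *Thbs4* they were *Ltbp2* (0.916), which encodes a matrix protein that binds microfibrils, *Lhx9* (0.912), *Gm32219* (0.887), *Galnt9* (0.881) and *P4ha3* (0.880). Among the 4 genes themselves, *Scx* and *Thbs4* were most alike (0.789) and *Scx* and *Tnmd* least (0.521). Over the 11 subcluster sums alone, *Scx* and *Thbs4* gave 0.768, but *Scx* and *Tnmd* 0.219 and *Tnmd* and *Thbs4* 0.054.

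Other tendon genes of fibroblast-like cells were described by lists, and from each the 2 highest and 2 lowest ratios are named among those whose sign was the same in both sexes (minimum 100 UMIs). Of 34 tendon matrix genes, 30 had a ratio below 0 and 11 a ratio below -1 (5.06% of all genes were below -1), with a median of -0.72 beside -0.07 over all genes. The number below -1 was 3 after thinning to 5000 UMIs, 12 for female-called cells and 5 for male-called cells. The share of all genes below -1 was not computed in these settings, so these counts have no background to be read against. After thinning the list median was -0.53, beside -0.04 over all genes. The lowest were *Chad* (chondroadherin, -2.03) and *Cilp2* (-1.56). *Col1a1*, which encodes the main collagen chain of tendon and is named here outside that rule, was at 6228 CPM in FGF8 and 13305 CPM in BSA, a ratio of -1.10. *Angptl7* (2.18) and *Tnc* (tenascin C, 0.32) were above 0. *Thbs4* therefore stood on the opposite side of 0 to most of the matrix list. The median was below 0 in both sexes, at -0.90 (female-called cells) and -0.54 (male-called cells). These ratios pool the subclusters, whose mixture differed between libraries. *Kera* and *Comp*, the genes of this list that were also measured by subcluster, hardly differed in subcluster 4 with the sexes pooled. There they were at -0.03 (-0.16 to 0.09) and 0.04 (-0.02 to 0.09), against -1.44 and -1.89 in subcluster 0. In subcluster 4 *Comp* was at 0.08 (-0.02 to 0.17) in female-called and -0.31 (-0.42 to -0.21) in male-called cells, while the intervals of *Kera* included 0 in both. In subclusters 1, 2 and 3 *Kera* was at -0.69, -2.38 and -1.12, and *Comp* at 0.52, 0.83 and -0.99.

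Of 17 genes that regulate tendon, or act beside *Scx* and *Mkx* in the limb, 10 were below 0 and 7 above, close to the 44.1% of all genes above 0, with a median of -0.20 (-0.35 for female-called and 0.17 for male-called cells). *Gdf5* (a growth factor of joints, -0.82) and *Klf2* (-0.72) were lowest, and *Foxc2* (1.44) and *Sox9* (the cartilage factor that is also found with *Scx* in attachment progenitors, 0.23) were highest. *Tcf15*, the closest relative of *Scx*, was too scarce for the rule: it had 27 and 2 UMIs, and its ratio of 2.78 had an interval from 0.79 to 5.89. TGF-beta signals maintain *Scx*, and of 14 genes of this pathway 10 were below 0, with a median of -0.12. *Tgfb3* (a ligand, -0.63) and *Ltbp3* (-0.55) were lowest, and *Smad7* (an inhibitor of the pathway, 1.00) and *Ltbp2* (0.68) highest. FGF signals through ERK act on *Scx* in the embryo, and 8 of 13 genes of this pathway were above 0, with a median of 0.09. The FGF target genes *Etv4* (2.14) and *Dusp6* (0.90) were highest, and *Spry1* (-0.44) and *Fgf18* (-0.68) lowest.

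Genes of the tendon sheath and the bony attachment had a median of -0.06, with 5 of 11 above 0, near the share of all genes, and 3 above 1 (6.62% of all genes). Of these 3, *Ihh*, named outside the rule, rested on 30 and 5 UMIs, and its ratio of 1.61 had an interval from 0.23 to 3.33. *Prg4* (2.94) and *Has1* (a hyaluronan synthase, 1.25) were high, and *Tppp3* (a sheath marker, -0.73) and *Igfbp6* (-0.85) low. Of 9 relatives of the 4 genes, 7 were below 0, with a median of -0.47. *Thbs4* differed in sign from *Thbs3* (-0.47) and *Comp* (-0.95), the thrombospondins of its own structural subgroup, and from *Thbs2* (-0.70) of the other subgroup. *Irx1*, a homeobox gene of the class to which *Mkx* belongs, was at -0.29. *Cnmd*, the relative of *Tnmd* in cartilage, also named outside the rule, was at -0.56 (-0.98 to -0.14) in fibroblast-like cells, from 112 and 84 UMIs.

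**Figure D5:**
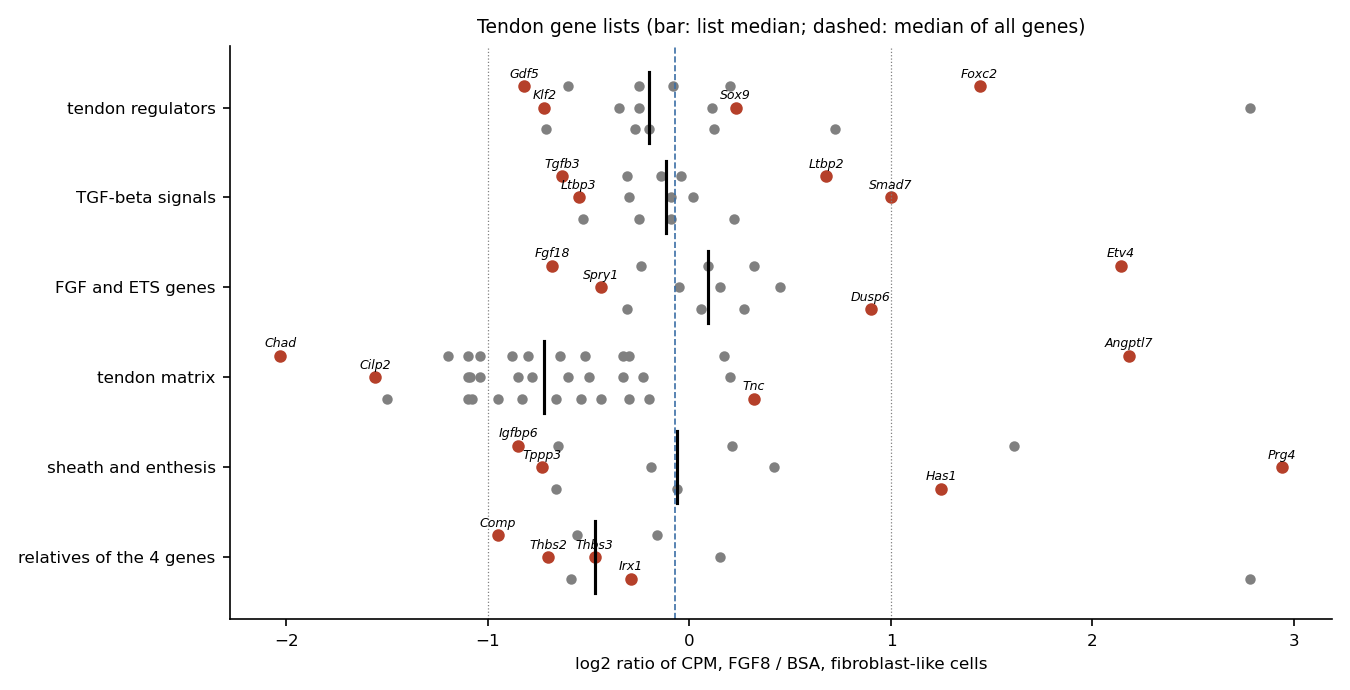
Log2 ratio of CPM, FGF8 over BSA, in fibroblast-like cells for the genes of 6 tendon lists, with 1 point per gene, black bars at list medians, a dashed line at the median of all genes (-0.07) and dotted lines at -1 and 1; named genes are in red. The tendon matrix list lies mostly below 0 (median -0.72), and *Prg4* (2.94) is the highest point.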

How the data were processed

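Single-cell RNA sequencing gave 1 library for each treatment. The authors captured cells with 10x 3′ chemistry and deposited raw UMI counts per gene and barcode, made with Cell Ranger 9.0.0 at default settings on GRCm39. The deposited counts had not been filtered by genes or mitochondrial share. A strand-specific 3′ count depends on where a transcript ends and not on its length, so levels of different genes are not compared.

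Cells were filtered, normalized by SCTransform and integrated by CCA as in the study's methods (Seurat 5.3.0, sctransform 0.4.2, R 4.3.3; 30 principal components, resolution 0.05, seed 42), which gave 9 clusters. Fibroblast-like cells were clustered again at resolution 0.2 on 2670 of 3000 variable features, without the 4 genes, the 354 genes of the study's lists of changed genes and X- and Y-linked genes. Names ending in -like rest on marker lists alone, so they can differ from the study's own cell types. Scrublet (scanpy 1.11.5) called 0 doublets and so did not work here; no doublets were removed.

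UMIs were summed by library and cell type and scaled to CPM, with exact Poisson intervals for levels, exact conditional intervals for log2 ratios and Clopper-Pearson intervals for shares (95%; Python 3.11.15, numpy 2.4.6, scipy 1.17.1, pandas 2.3.3, matplotlib 3.10.9). A count of 0 was given an upper limit of 3 counts. Genes with fewer than 10 UMIs over both libraries were left out of the background. Cells were called female by *Xist* without *Ddx3y*, *Eif2s3y*, *Kdm5d* or *Uty*, and male by the reverse. The computation was tested on simulated data for the comparison of fibroblast-like cells (20053 genes, 200 changed): 94.5% of changed genes had the true ratio inside the interval and 96.1% of unchanged genes had 0 inside it. The simulated sums were independent Poisson draws, which the interval assumes. They check the computation only, since the uneven spread of UMIs over cells was not simulated.

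Genes named are the 4 genes, the 2 highest and 2 lowest of each list whose sign was the same in both sexes (minimum 100 UMIs), the 5 genes most like each of the 4 (at least 1000 UMIs), and genes that define clusters. The 4 genes, the lists and the tests were chosen with earlier results of these data known. Alternatives were other cell filters, clusterings, scalings, depths and sexes. A feature list for the integration and the split by *Prg4* were added after seeing the data. TMM factors came from edgeR 4.0.16, used for no test. Gene positions are from GENCODE vM39.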

Additional observations from a re-analysis of the deposited data

Results flagged for a closer look

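Differences listed here are between ratios of 1 library over another, and none was tested. *Scx* was higher in FGF8 in subcluster 4 (log2 ratio 0.23) and lower in subcluster 0 (-0.94). Within the female-called and male-called cells, *Scx* was at -0.05 and -0.15 in subcluster 4, so it was higher in neither sex, and at -1.16 and -0.32 in subcluster 0. Between the sexes it was higher in male-called (0.18) and lower in female-called (-0.51) fibroblast-like cells. Among cell types it was 0.97 in the cluster left unnamed (59 and 19 UMIs) and -0.29 in fibroblast-like cells. *Tnmd* was 0.70 in subcluster 4 and -1.68 in subcluster 0. Within the female-called and male-called cells, *Tnmd* was at -0.37 and 0.65 in subcluster 4 and at -2.02 and -0.37 in subcluster 0. It was 0.96 in macrophage-like cells (76 and 22 UMIs) and -3.74 in erythroid-like cells, where 63 of the 80 BSA UMIs lay in 2 cells.

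Barcodes outside the cell filters also held *Thbs4*. The 534 FGF8 barcodes gave 8002 UMIs, or 369 CPM, and the 451 BSA barcodes gave 2235, or 167 CPM.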

How the results depend on the processing

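No paired analysis was possible because each condition is 1 library with no replicate number. Of 76 alternative values of the 4 ratios (FGF8 over BSA in fibroblast-like cells: *Scx* -0.29, *Mkx* -0.66, *Tnmd* -0.65, *Thbs4* 1.35), 38 stayed inside the counting interval, among them all 16 from no integration, types called per cell, resolution 0.2 and leaving the 4 genes out of the features, and 38 moved. *Thbs4* stayed above 0 and *Mkx* and *Tnmd* below 0 in every alternative, and *Scx* did not. In the order *Scx*, *Mkx*, *Tnmd*, *Thbs4*, the stricter cell filter gave 0.15, -0.41, -0.30 and 1.24, female-called cells gave -0.51, -0.84, -1.16 and 0.95, male-called cells gave 0.18, -0.28, -0.36 and 2.22, and the BSA mixture of subclusters gave -0.47, -0.42, -0.01 and 1.29. Cells without a *Prg4* UMI gave -0.67, -0.37, -0.53 and 0.92, and cells with one gave -1.26 for *Scx*, -1.49 for *Mkx* and 0.77 for *Thbs4*. Equal weight of cells gave -0.14 for *Scx*, -0.25 for *Mkx* and -0.51 for *Tnmd*. TMM scaling gave -0.20 for *Scx*, -0.57 for *Tnmd* and 1.44 for *Thbs4*, and centring on the median of all genes gave -0.58 for *Tnmd* and 1.42 for *Thbs4*. Thinning to 2000 UMIs gave -0.56 for *Tnmd* and 1.44 for *Thbs4*, and thinning to 5000 gave -0.17 for *Scx* and -0.40 for *Tnmd*. *Thbs4* was 1.42 in all kept cells, 1.40 without the highest Scrublet scores and 1.26 with no upper limit on genes. The cause of these moves was not tested. Of 36 alternative values of co-detection, 5 had the opposite sign: 3 for *Scx* with *Tnmd* and 2 for *Tnmd* with *Thbs4*, among them 0.700 percentage points more *Thbs4* in FGF8 cells with *Tnmd* at 2000 UMIs (-6.90 at 5000). Of 30 list medians, 1 turned, that of the regulators in male-called cells (0.17). The subcluster with the highest level depended on the clustering. For *Tnmd* it was the one of 82 FGF8 and 39 BSA cells with all variable features (434 and 297 CPM), and in BSA the one of 38 cells without the tendon lists (311 CPM). At resolution 0.3 it held mostly cells of subcluster 5 in FGF8 and of subcluster 1 in BSA, and for *Mkx* mostly cells of subcluster 1 in FGF8 and of subcluster 2 in BSA. With 1 library per condition, depth narrows only the counting error.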

Other observations

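Dividing fibroblast-like cells, taken as those with at least 2 UMIs of the proliferation genes *Mki67* and *Top2a* together, numbered 1206 in FGF8 and 259 in BSA, and 1682 and 1315 cells had none. The cells were deeper (median 31387 and 30711 UMIs, against 13963 and 17996), so levels are given as CPM. *Tnmd* was lower in dividing cells of both libraries, at 44.5 CPM (42.4–46.7) against 129 CPM (125–134) in FGF8 and 89.3 CPM (82.9–96.1) against 145 CPM (140–150) in BSA. *Scx* was higher in dividing cells, at 53.7 CPM (51.4–56.1) against 40.6 CPM (38.1–43.2) in FGF8 and 73.6 CPM (67.8–79.8) against 54.7 CPM (51.8–57.8) in BSA. *Thbs4* was also higher in them, at 522 against 360 CPM in FGF8 and 190 against 163 CPM in BSA. For *Mkx* the dividing cells were lower in FGF8, at 11.9 CPM (10.8–13.1) against 18.6 CPM (17.0–20.4), and overlapped the others in BSA, at 21.5 CPM (18.5–25.0) against 24.2 CPM (22.3–26.3). The FGF8 over BSA log2 ratio of *Tnmd* was -1.01 (-1.13 to -0.88) in dividing cells and -0.17 (-0.24 to -0.10) in the others, while *Scx* gave -0.45 and -0.43 and *Thbs4* gave 1.46 and 1.15. Subcluster 0, led in part by histone genes of dividing cells, was low for *Tnmd* (20.6 and 66.0 CPM in FGF8 and BSA). It also held most of the *Scx* UMIs. The dividing cells were not split by subcluster or by called sex. Division therefore cannot be told apart from subcluster or sex here, and these differences were not tested.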
